A study of Mus musculus with 11 samples.

Results

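The genes described here are 7 genes for secreted or apical proteins of secretory epithelium: Clca1, Dmbt1, Ltf, Wfdc2, Muc1, Lcn2 and Pigr. They are 7 of 14069 named genes that were measured well enough to be tested, and 9 of 55681 probes on the array, since Wfdc2 and Pigr have 2 probes each. Probes were found through their RefSeq accessions, which were NM_017474 for Clca1, NM_007769 for Dmbt1, NM_008522 for Ltf, NM_026323 for Wfdc2, NM_013605 for Muc1, NM_008491 for Lcn2 and NM_011082 for Pigr. The list was chosen as genes of luminal cells with measured values of these same arrays known, and Clca1 also by its change with the hairpin in basal cells. Differences of the 7 genes between luminal and basal cells, and every difference of Clca1, are therefore given with no p. Where a call of theirs by the fit is stated, it describes how the fit behaved and supports nothing.

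The study asked whether the Wnt receptor tyrosine kinase Ror2 acts differently in the 2 epithelial compartments of the mouse mammary gland. Single primary mammary epithelial cells were infected with lentivirus, coding either for a hairpin to knock down Ror2 (shROR2) or for the control hairpin shLUC, injected in matrigel, and allowed to form outgrowths. Luminal and basal cells of the outgrowths were sorted on the surface markers CD24 and CD29, and amplified RNA was hybridized to one-colour Agilent arrays. The 11 arrays used were 2 of luminal shROR2, 3 of luminal shLUC, 3 of basal shROR2 and 3 of basal shLUC cells. A further luminal shROR2 sample was not analysed here. All 4 groups had gone through infection and outgrowth. The labels call the samples biological triplicates, but which luminal and basal samples came from the same outgrowth, and the strain and age of the mice, are not given in the sources used here.

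The luminal cells of the mammary gland line the ducts and alveoli and release milk proteins together with proteins that bind iron, coat bacteria or carry antibody into the lumen, as mucosal epithelia elsewhere do. Basal cells, which are contractile, lie beneath them and have no apical surface on the lumen. Clca1 is a secreted protease-like protein best known from goblet cells of the gut and the inflamed airway. Dmbt1 is a scavenger receptor cysteine-rich glycoprotein that binds bacteria, Ltf is the iron-binding milk protein lactoferrin, and Lcn2 is lipocalin 2, which withholds bacterial siderophores. Wfdc2 belongs to the whey acidic protein (WAP) family of small secreted proteins, Muc1 is a mucin of the apical membrane, and Pigr carries polymeric immunoglobulin across the epithelium.

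RefSeq promoter sequences (mouse build GRCm38.p6) were at hand for 5 of the 7 genes, all except Clca1 and Dmbt1. The 250 bases before the annotated start are printed for Ltf and Wfdc2, which were higher in luminal cells, and for Lcn2, which was not on its 1 probe. Capitals mark AGGAAG on either strand (CTTCCT where it lies on the other strand), a sequence that ETS factors can bind. That family holds the luminal regulators Elf5 and Ehf, whose levels are given further on.
Ltf: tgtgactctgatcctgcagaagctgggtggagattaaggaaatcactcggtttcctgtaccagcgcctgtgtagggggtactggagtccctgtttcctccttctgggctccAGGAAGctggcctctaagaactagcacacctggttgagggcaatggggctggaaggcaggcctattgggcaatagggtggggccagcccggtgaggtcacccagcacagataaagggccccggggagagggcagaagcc
Wfdc2: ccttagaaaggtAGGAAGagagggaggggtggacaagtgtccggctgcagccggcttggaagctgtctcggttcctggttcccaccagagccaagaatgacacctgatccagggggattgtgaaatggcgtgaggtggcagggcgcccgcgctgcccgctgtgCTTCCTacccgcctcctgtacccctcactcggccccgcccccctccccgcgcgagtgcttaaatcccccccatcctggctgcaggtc
Lcn2: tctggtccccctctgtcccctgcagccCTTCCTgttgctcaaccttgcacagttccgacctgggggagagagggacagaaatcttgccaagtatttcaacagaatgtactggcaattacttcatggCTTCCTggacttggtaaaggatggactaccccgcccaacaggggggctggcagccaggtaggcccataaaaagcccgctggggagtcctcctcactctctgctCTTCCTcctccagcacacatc
The Ltf stretch lies at chr9:111019042-111019291 on the plus strand, that of Wfdc2 at chr2:164562465-164562714 on the plus strand, and that of Lcn2 at chr2:32387740-32387989 on the minus strand. Counted back from the start site, the first letter of the match lay at -139 in Ltf, at -238 and -87 in Wfdc2, and at -223, -124 and -21 in Lcn2. The windows of Muc1 and Pigr held 0 matches to AGGAAG, and other sequences that ETS factors can bind were not searched. The same sequence occurred in 29.5% of the 32851 RefSeq windows of this length, and it was present both before genes higher in luminal cells and before Lcn2. The TATA box TATAAA, searched on both strands and overlapping no AGGAAG, was found before Muc1 only, at -31, against 12.4% of all windows. These matches describe the letters in the windows and say nothing of binding.

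Values are processed signals of the scanner in its own units. For differences, the log2 signal was set against the 75th percentile of its array, and limma estimated the 4 group means from all 11 arrays at once. A feature was called where its Benjamini-Hochberg adjusted p over all 29430 tested features was under 0.05. Between 52.8% and 59.5% of the probes were well above background on an array. Correlations between arrays of a group were 0.983 in luminal shROR2, 0.981 to 0.983 in luminal shLUC, 0.941 to 0.953 in basal shROR2 and 0.976 to 0.982 in basal shLUC cells. The 1 probe of the targeted gene Ror2 was well above background on 1 of 11 arrays, at 16.8 on the array labelled basal shROR2 replicate 1. The other basal shROR2 arrays gave 3.03 and 6.93, and the basal shLUC arrays 10.1 to 12.1, so this probe offered no usable check of the hairpin labels.

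Luminal cells had higher levels than basal cells for 5 of the 7 genes with either hairpin: Clca1, Dmbt1, Ltf, Wfdc2 and Muc1. Lcn2 and Pigr did not follow the name of the list, since on the probes used both had slightly lower levels in luminal than in basal cells. In shROR2 cells 4 of the 7 genes were called, all higher in luminal cells, where 22.9% of all features were called. In shLUC cells 6 of the 7 were called, 5 higher and Lcn2 lower, where 26.8% of all features were called. Since the list was chosen by this contrast, nothing is read from these counts. The median log2 difference of the 7 genes was 2.65 in shROR2 and 2.82 in shLUC cells, against 0.08 and 0.06 over all features.

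**Figure D1:**
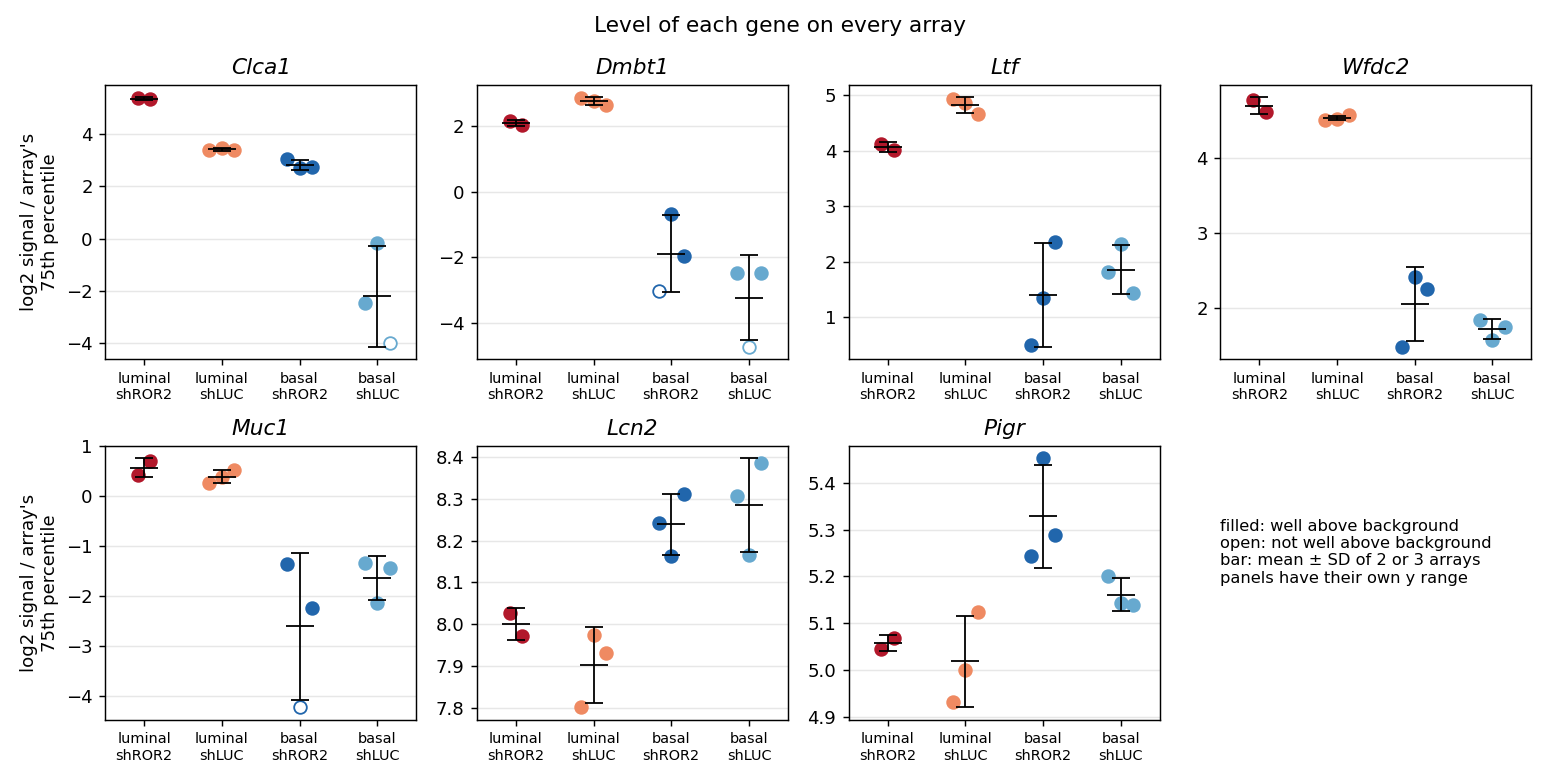
Level of each gene on every array, as log2 signal relative to the 75th percentile of the array, for luminal shROR2, luminal shLUC, basal shROR2 and basal shLUC cells. Points are arrays (open where not well above background), bars show mean and SD of 2 or 3 arrays, and each panel has its own range. Clca1 has means of 5.37 in luminal shROR2, 3.42 in luminal shLUC, 2.84 in basal shROR2 and -2.21 in basal shLUC cells. Lcn2 and Pigr span less than a log2 unit.

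Clca1 was the member with the largest difference between hairpins, and it was higher with shROR2 in both compartments. Its signal was 5117 and 4658 in luminal shROR2 cells, against 1188, 1284 and 1230 in luminal shLUC cells. In basal cells it was 947.1, 760.3 and 746.6 with shROR2, against 20.9, 117.3 and 7.23 with shLUC. In each compartment every shROR2 array lay above every shLUC array. The lowest basal shLUC array was not well above background for Clca1, and the spread within that group was the widest for this gene, with an SD of 1.93 on the log2 scale against 0.19 in basal shROR2 cells.

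The log2 difference of Clca1 between shROR2 and shLUC was 5.04 ± 0.76 in basal cells and 1.95 ± 0.85 in luminal cells (SE of the fit). It was the only one of the 7 genes called in basal cells, where 0.948% of all features were called. In luminal cells 0 of the 7 genes were called by limma, where 0.0034% of all features were called and 1633 features had an unadjusted p under 0.05. For the difference between the compartments limma called 0 of the 7 genes, 0% of all features, and 2444 features had an unadjusted p under 0.05. For Clca1 this difference, luminal minus basal, was -3.09 ± 1.13 on the log2 scale.

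The size of the Clca1 difference in basal cells depended on the shLUC arrays. It was 6.07 without basal shLUC replicate 2, the array with the highest signal, and 4.16 without replicate 3, the array with the lowest. Within the 2 slides, which each held arrays of every group, it was 6.13 on slide 1 and 2.88 on slide 2. It was 3.30 when the background was corrected by normexp and 3.16 in the authors' deposited values. The luminal difference was 2.01 on slide 1 and 1.91 on slide 2. The basal call was lost, with the difference unchanged at 5.04, without any one of the 3 luminal shLUC arrays or either luminal shROR2 array. It was also lost without basal shLUC replicate 1, where the difference was 4.91. In luminal cells, where Clca1 was not called, the fit called it with normexp, at 1.88, and in the authors' deposited values, at 1.81.

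With shROR2, Clca1 was 2.53 ± 0.85 higher on the log2 scale in luminal than in basal cells, and with shLUC 5.63 ± 0.76 higher. The shROR2 difference was not called, but the fit called it at the same 2.53 without basal shLUC replicate 2 or replicate 3 and with only the 2 shROR2 groups, at 2.41 with normexp, and at 2.39 in the authors' deposited values. In RefSeq the protein-coding neighbours of Clca1 on chromosome 3 are Clca4a and Clca2. Their probes, and those of Clca3b and Clca4b, were well above background on 0 of 11 arrays. Clca3a1 and Clca3a2, also of the Clca family, were well above background on all 11 arrays. Their hairpin differences in basal cells were -0.21 ± 0.15 (adjusted p = 0.545, limma) and -0.34 ± 0.11 (adjusted p = 0.194). Both went the other way from Clca1 between compartments, at -1.48 ± 0.15 for Clca3a1 and -1.27 ± 0.11 for Clca3a2 in luminal minus basal shLUC cells.

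Dmbt1 had signals of 534.1 and 468.2 in luminal shROR2 cells, against 821.1, 785.2 and 724.3 in luminal shLUC cells. In basal cells it lay near background, at 14.0, 71.4 and 28.9 with shROR2 and at 20.8, 4.98 and 20.4 with shLUC, and 1 array of each basal group was not well above background. The luminal groups did not overlap and the basal groups did. The hairpin difference was -0.67 ± 0.76 in luminal cells (adjusted p = 1.0, limma) and 1.34 ± 0.68 in basal cells (adjusted p = 0.385), and neither was called. Luminal minus basal, Dmbt1 had a log2 difference of 3.97 ± 0.76 with shROR2 and 5.98 ± 0.68 with shLUC, set against basal groups in which 1 array each was not well above background.

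Ltf, the lactoferrin gene, had signals of 2113 and 1849 in luminal shROR2 cells, against 3438, 3364 and 2957 in luminal shLUC cells. The basal values were 161.5, 294.7 and 575.4 with shROR2 and 409.9, 658.9 and 311.1 with shLUC. The luminal arrays did not overlap, with both shROR2 arrays lower, while the basal arrays did. The hairpin difference was -0.75 ± 0.46 in luminal cells (adjusted p = 1.0, limma) and -0.46 ± 0.41 in basal cells (adjusted p = 0.641). Neither passed the test. Luminal minus basal, Ltf had a log2 difference of 2.66 ± 0.46 with shROR2 and 2.95 ± 0.41 with shLUC.

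Wfdc2 had signals of 3331 and 2842 in luminal shROR2 cells, against 2587, 2675 and 2800 in luminal shLUC cells. In basal cells it had 319.4, 615.8 and 535.0 with shROR2, against 416.2, 391.0 and 385.0 with shLUC. One basal shROR2 array thus lay below the basal shLUC arrays and the other two above them. On its second probe the 3 basal shROR2 arrays, at 241.8, 282.1 and 282.4, all lay above the basal shLUC arrays, at 192.2, 182.6 and 190.6. The hairpin difference of the first probe was 0.33 ± 0.22 in basal cells (adjusted p = 0.509, limma) and 0.16 ± 0.25 in luminal cells (adjusted p = 1.0), and the group means of the second probe differed by 0.59 in basal and 0.15 in luminal cells. Without basal shROR2 replicate 1, Wfdc2 was called in basal cells at 0.61 (adjusted p = 0.0476, limma). In that fit 2 of the 7 genes were called, and 878 of all 29430 features, against 279 with all arrays. Luminal minus basal, Wfdc2 had a log2 difference of 2.65 ± 0.25 with shROR2 and 2.82 ± 0.22 with shLUC.

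Muc1, the apical mucin, had signals of 163.3 and 187.5 in luminal shROR2 cells, against 135.6, 149.9 and 169.1 in luminal shLUC cells, and these arrays overlapped. In basal cells it was 44.8, 6.20 and 23.9 with shROR2, against 45.9, 29.9 and 42.5 with shLUC, and basal shROR2 replicate 2 was not well above background. The hairpin difference was 0.18 ± 0.68 in luminal cells (adjusted p = 1.0, limma) and -0.96 ± 0.61 in basal cells (adjusted p = 0.483). Luminal minus basal, Muc1 had a log2 difference of 3.17 ± 0.68 with shROR2 and 2.02 ± 0.61 with shLUC. The shROR2 call was lost without luminal shROR2 replicate 1, at 3.30, or replicate 2, at 3.03. The shLUC call was lost without any one array of luminal shLUC, luminal shROR2 or basal shLUC cells, at differences of 1.77 to 2.17.

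Lcn2 was bright on every array and hardly varied. Its signal was 31583 and 28943 in luminal shROR2 cells, against 25195, 29119 and 28664 in luminal shLUC cells. In basal cells it was 34525, 33078 and 35664 with shROR2, against 36684, 37698 and 38406 with shLUC, and 0 spots on the arrays were marked as saturated. On the scaled log2 level, which takes out the brightness of each array, the hairpin groups overlapped in both compartments, and the difference was 0.10 ± 0.12 in luminal cells (adjusted p = 1.0, limma) and -0.05 ± 0.11 in basal cells (adjusted p = 0.875). Luminal minus basal, Lcn2 had a log2 difference of -0.24 ± 0.12 with shROR2 and -0.38 ± 0.11 with shLUC. The call in shLUC cells was lost without luminal shLUC replicate 1, 2 or 3 or basal shLUC replicate 1 or 3, at -0.42 to -0.33. Lcn2 has 1 probe, so its level and its direction between compartments rest on that probe. Whether the probe reports Lcn2 was not tested.

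The 2 probes of Pigr disagreed. The brighter one, used for the fit, gave 3998 and 3869 in luminal shROR2 cells and 3447, 3705 and 4095 in luminal shLUC cells. In basal cells it gave 4318, 5048 and 4392 with shROR2, against 4265, 4643 and 4044 with shLUC. The other probe was well above background on 0 of 11 arrays, with signals of 2.19 to 7.75. On the first probe the hairpin difference was 0.04 ± 0.12 in luminal cells (adjusted p = 1.0, limma) and 0.17 ± 0.10 in basal cells (adjusted p = 0.478), with basal arrays that did not overlap on the scaled level. Luminal minus basal it was -0.27 ± 0.12 with shROR2 and -0.14 ± 0.10 with shLUC. Which of the probes reports Pigr was not tested, so its level in these cells is uncertain.

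**Figure D2:**
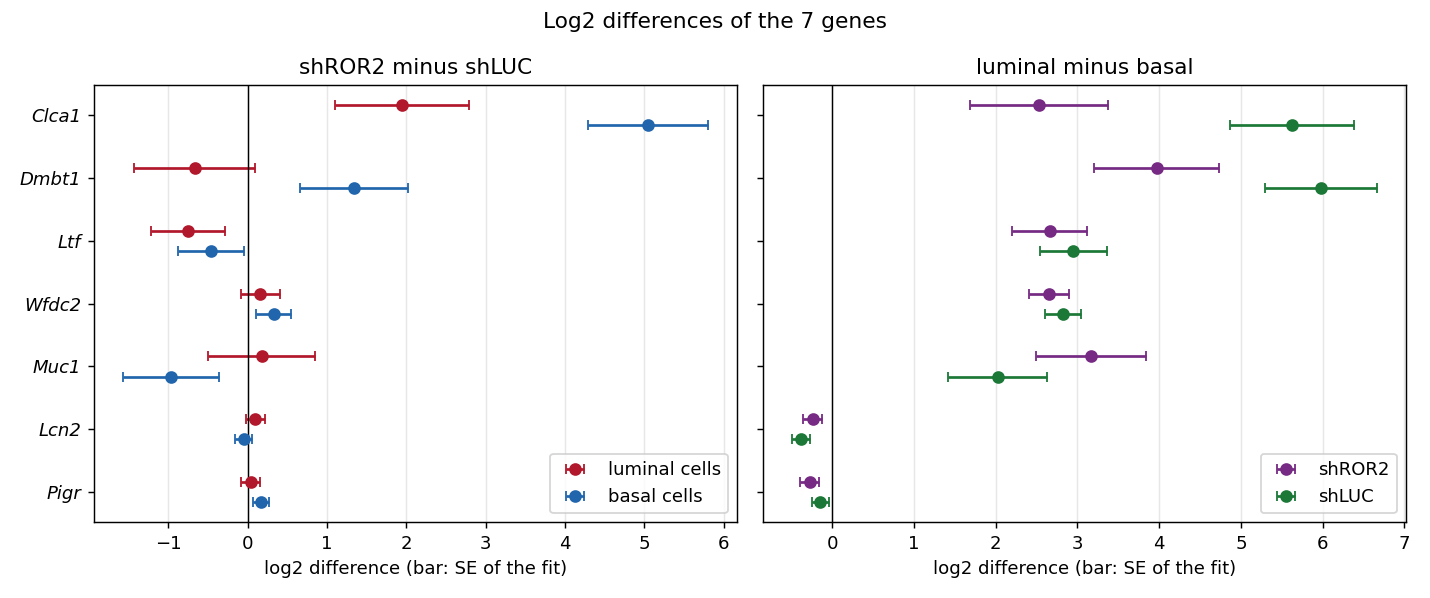
Log2 differences of the 7 genes with the SE of the fit as bars, on the left shROR2 minus shLUC in luminal and in basal cells, on the right luminal minus basal in shROR2 and in shLUC cells. Clca1 stands apart on the left, at 1.95 in luminal and 5.04 in basal cells, while Lcn2 and Pigr lie close to 0 on both sides.

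The difference of the hairpin change between the compartments, luminal minus basal, was not called for any of the 7 genes. It was -2.01 ± 1.02 for Dmbt1 (adjusted p = 0.653, limma), 1.14 ± 0.91 for Muc1 (adjusted p = 0.798) and -0.29 ± 0.62 for Ltf (adjusted p = 0.935). For Wfdc2, Lcn2 and Pigr it lay between -0.17 and 0.14. The median hairpin difference of the 7 genes was 0.10 in luminal and 0.17 in basal cells, against 0.00 and -0.05 over all features.

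Other genes of the same functions were taken from 8 lists, and 93 of them besides the 7 genes were tested. With the hairpin, 1 of the 93 was called higher and 0 lower in basal cells, a share near the 0.948% of all features called there, so it is no result about these lists. By limma 0 of the 93 were called in luminal cells (0.0034% of all features called) and 0 in the difference between compartments (0%). The gene called in basal cells was Lyz1, a lysozyme that cleaves bacterial cell walls. Its signal was 202.9, 226.2 and 175.7 in basal shROR2 cells, against 81.7, 100 and 104.5 in basal shLUC cells, and these did not overlap. The log2 difference was 1.16 ± 0.14 (adjusted p = 0.0122, limma). In luminal cells Lyz1 had 359.5 and 318.6 with shROR2, against 175.1, 200.7 and 199.8 with shLUC, a difference of 0.79 ± 0.15 (adjusted p = 0.288).

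Of the 28 tested antimicrobial and acute-phase genes, 10 were called higher and 6 lower in luminal than in basal shROR2 cells, with a median log2 difference of 0.08. In shLUC cells 12 were called higher and 6 lower, with a median of 0.71. As for each list that follows, these counts stand beside 22.9% of all features called in shROR2 and 26.8% in shLUC cells, where 3836 of 29430 were called higher and 4065 lower. Reg3g, a lectin that kills gram-positive bacteria, was at least 14.2-fold higher in luminal than in basal shROR2 cells and at least 17.7-fold higher in luminal than in basal shLUC cells, where it was not well above background on any basal array. These folds are bounds, in which each basal array took the dimmest signal that it measured above background. Rnase4, a secreted ribonuclease, went the other way, at -3.75 ± 0.43 with shROR2 and -5.29 ± 0.38 with shLUC. With the hairpin the same list had a median of 0.07 in luminal and 0.05 in basal cells.

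In the WAP family, 5 of 10 tested genes besides Wfdc2 were called higher and 1 lower in luminal than in basal shROR2 cells (22.9% of all features called), and 4 higher and 1 lower in shLUC cells (26.8%). The gene called lower in both was Slpi. Slpi, a secreted inhibitor of leukocyte proteases, had a log2 difference of -3.35 ± 0.11 with shROR2 and -3.71 ± 0.10 with shLUC, the reverse of Wfdc2. Wap, the milk whey acidic protein, was well above background on 1 basal shROR2 and 0 basal shLUC arrays. It had a log2 difference of 2.45 ± 0.57 with shROR2, and with shLUC it was at least 3.60-fold higher in luminal than in basal cells. In basal cells the hairpin difference was -0.77 ± 0.21 for Wfdc13 (adjusted p = 0.129, limma) and -0.32 ± 0.10 for Slpi (adjusted p = 0.169), and the list had a median of -0.25.

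Of 6 tested mucins besides Muc1, 3 were called higher and 0 lower in luminal than in basal cells with either hairpin (22.9% of all features called with shROR2 and 26.8% with shLUC). Muc4, a large membrane mucin, had a log2 difference of 2.43 ± 0.64 with shROR2 and 4.16 ± 0.57 with shLUC, and Muc15 had 4.34 ± 0.20 and 3.41 ± 0.18, though Muc15 was well above background on 1 of 3 basal shROR2 arrays and Muc4 on 2 of 3 basal shLUC arrays. Neither passed the test between hairpins in basal cells, at 0.98 ± 0.57 for Muc4 (adjusted p = 0.451, limma) and -0.65 ± 0.18 for Muc15 (adjusted p = 0.134). The mucin list had a median hairpin difference of -0.05 in luminal and -0.10 in basal cells.

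Of 9 goblet and secretory cell genes besides Clca1, 2 were called higher and 0 lower in luminal than in basal shROR2 cells (22.9% of all features called), and 2 higher and 1 lower in shLUC cells (26.8%). The defining goblet cell genes Agr2, Tff1, Tff2, Tff3 and Gcnt3 were too dim to be tested. Fcgbp, a mucus protein, had a log2 difference of 2.96 ± 0.18 with shROR2 and 2.86 ± 0.16 with shLUC. Foxa3, a transcription factor, was well above background on 0 luminal arrays and on 2 of the 3 basal arrays of each hairpin, and it was at least 1.90-fold lower in luminal than in basal shROR2 cells and at least 1.69-fold lower in luminal than in basal shLUC cells. The smallest p values of this list with the hairpin in basal cells belonged to Bcas1, at 0.88 ± 0.44 (adjusted p = 0.383, limma), and Zg16, at 0.32 ± 0.19 (adjusted p = 0.472). Of these 9 genes 0 were called with the hairpin, where 0.948% of all features were called in basal and 0.0034% in luminal cells. The count is near those shares, so it is no result about this list. The median hairpin difference was 0.26 in luminal and 0.19 in basal cells.

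Of 6 scavenger receptor cysteine-rich genes and Dmbt1 partners, 1 was called higher and 1 lower in luminal than in basal cells with either hairpin, a share near that of all features (22.9% with shROR2 and 26.8% with shLUC). Lgals3, a galectin, had 1.89 ± 0.14 with shROR2 and 2.55 ± 0.13 with shLUC, and Lgals9, also a galectin, had -1.02 ± 0.18 and -1.84 ± 0.16. With the hairpin in basal cells, Lgals4 had 1.12 ± 0.24 (adjusted p = 0.0729, limma). Marco, a scavenger receptor of macrophages, was well above background on 0 basal shROR2 and 3 basal shLUC arrays, at least 5.26-fold lower with shROR2, and was not called (adjusted p = 0.0888, limma). The list had a median of -0.20 in luminal and -0.12 in basal cells with the hairpin.

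Of 6 genes of immunoglobulin transport and mucosal homing besides Pigr, 1 was called higher and 1 lower in luminal than in basal shROR2 cells (22.9% of all features called), and 2 higher and 2 lower in shLUC cells (26.8%). Vcam1, an adhesion molecule for leukocytes, had a log2 difference of -1.28 ± 0.20 with shROR2 and -2.25 ± 0.18 with shLUC. Fcgrt, the heavy chain of the neonatal Fc receptor, had -0.63 ± 0.23 and -1.004 ± 0.202. Jchain, which encodes the chain that Pigr recognises on polymeric immunoglobulin, was too dim to be tested. With the hairpin in basal cells, Vcam1 had -0.56 ± 0.18 (adjusted p = 0.185, limma) and Ccl25, a chemokine, had 0.25 ± 0.12 (adjusted p = 0.368).

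Of 28 regulators of epithelial defence, 9 were called higher and 9 lower in luminal than in basal shROR2 cells (22.9% of all features called), and 12 higher and 8 lower in shLUC cells (26.8%). Elf5, an ETS factor of alveolar luminal cells that was well above background on 1 of 3 basal arrays of each hairpin, had 5.12 ± 0.69 with shROR2 and 4.08 ± 0.62 with shLUC, and Ehf, another epithelial ETS factor, had 3.16 ± 0.15 and 3.52 ± 0.13. Neither passed the test with the hairpin in basal cells, where the smallest p values belonged to Cd14, the co-receptor for lipopolysaccharide, at 0.61 ± 0.14 (adjusted p = 0.0923, limma), and Nfkb1, a subunit of NF-kB, at -0.41 ± 0.10 (adjusted p = 0.114). This list had a median of 0.07 in luminal and 0.24 in basal cells with the hairpin.

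**Figure D3:**
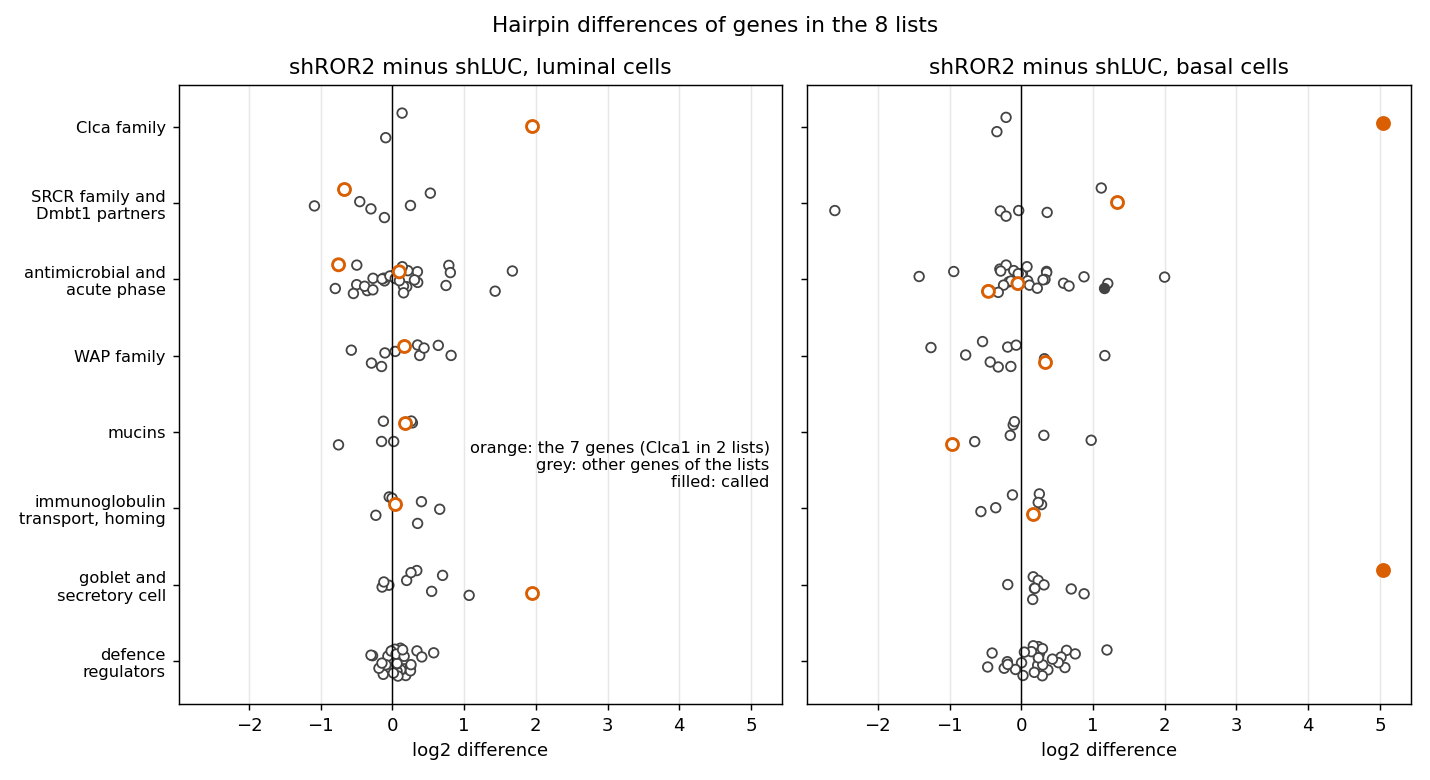
Log2 difference, shROR2 minus shLUC, of every tested gene of the 8 lists, in luminal cells on the left and basal cells on the right, each point a gene and orange marking the 7 genes. In basal cells the filled points are Clca1, at 5.04 and shown in both lists that hold it, and Lyz1, at 1.16; in luminal cells no point is filled.

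Marker lists of the cell types that a sort could hold were summed on each array as signal relative to its 75th percentile. In bulk RNA, more cells of a type and more RNA per cell cannot be told apart. The 12 basal markers summed to 124 to 131 in luminal shROR2 and 117 to 124 in luminal shLUC cells, against 1733 to 1811 in basal shROR2 and 1799 to 2035 in basal shLUC cells. Without Trp63, whose probes disagreed and which was left out after the values were seen, the other 11 summed to 28.9 to 33.3 in luminal shROR2 and 26.9 to 29.6 in luminal shLUC cells, against 1626 to 1694 in basal shROR2 and 1699 to 1929 in basal shLUC cells. The 15 general luminal markers summed to 587 to 631 in luminal shROR2 and 561 to 581 in luminal shLUC cells, and to 111 to 138 in basal shROR2 and 94.1 to 96.8 in basal shLUC cells. Of these 15, 14 or 15 were well above background on every basal array. The sums of the basal groups did not overlap, with shROR2 higher, and Krt18, the brightest of the list, had a basal hairpin difference of 0.46 ± 0.12 (adjusted p = 0.127, limma). By limma 0 of the 15 were called with the hairpin, and their median was 0.34 in basal and 0.02 in luminal cells. Over all features 0.948% were called with the hairpin in basal and 0.0034% in luminal cells. The 12 hormone-sensing luminal markers summed to 169 to 172 in luminal shROR2 and 126 to 136 in luminal shLUC cells, and to 16.8 to 19.8 in basal shROR2 and 11.2 to 12.0 in basal shLUC cells. The 14 progenitor or alveolar markers summed to 141 to 166 in basal shROR2 and 125 to 146 in basal shLUC cells, which overlapped, and to 549 to 566 in luminal shROR2 and 504 to 555 in luminal shLUC cells. Of these, Lalba, the milk protein alpha-lactalbumin, was called higher with shROR2 in basal cells, at 1.40 ± 0.25 (adjusted p = 0.0468, limma).

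Beside the basal Clca1 values, the general luminal sum of basal shROR2 cells was thus above that of basal shLUC cells, and the part of luminal RNA in the Clca1 difference was not tested. On the same arrays the other 4 genes with higher levels in luminal cells had basal hairpin differences of -0.46 for Ltf, -0.96 for Muc1, 0.33 for Wfdc2 and 1.34 for Dmbt1. Clca1 had 818 ± 112 in basal shROR2 cells (SD, n = 3). In luminal cells it had 4888 ± 325 with shROR2 (SD, n = 2) and 1234 ± 48.0 with shLUC (SD, n = 3). Ltf had 344 ± 211 in basal shROR2 cells, against 1981 ± 187 in luminal shROR2 and 3253 ± 259 in luminal shLUC cells.

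Of the markers of cells outside the epithelium, 3 of 8 macrophage, 1 of 6 endothelial and 1 of 4 adipocyte genes tested were called higher with shROR2 in basal cells. By limma 0 of the fibroblast, neutrophil, T cell and B or plasma cell genes were called there. Over all 29430 features 0.948% were called in this contrast, 110 higher and 169 lower. The 9 macrophage markers summed to 45.7 to 51.3 in basal shROR2 and 41.4 to 42.3 in basal shLUC cells, and the genes called were the complement genes C1qc, C1qb and C1qa, at 1.71 ± 0.19, 1.04 ± 0.16 and 1.49 ± 0.23 (adjusted p = 0.0103, 0.0276 and 0.0301, limma). In luminal cells the same markers summed to 65.3 to 65.5 with shROR2 and 65.2 to 68.3 with shLUC. Csf1r, the brightest of them, had a basal difference of -0.01. The 6 endothelial markers summed to 35.9 to 45.2 in basal shROR2 and 19.5 to 24.7 in basal shLUC cells, with Plvap called at 1.35 ± 0.24 (adjusted p = 0.0436, limma). The 6 adipocyte markers summed to 45.5 to 56.1 in basal shROR2 and 23.6 to 26.2 in basal shLUC cells, with Fabp4 called at 1.02 ± 0.14 (adjusted p = 0.0215, limma), while Adipoq and Cfd were each well above background on 1 of 11 arrays. In luminal cells the endothelial sum was 13.3 to 13.7 with shROR2 and 10.8 to 11.5 with shLUC, and the adipocyte sum 12.8 to 14.8 with shROR2 and 7.01 to 8.58 with shLUC. The 8 fibroblast markers summed to 11.6 to 12.3 in luminal shROR2 and 6.87 to 7.20 in luminal shLUC cells, and to 58.6 to 75.9 in basal shROR2 and 62.7 to 68.8 in basal shLUC cells. The part of these cells in the Clca1 and Lyz1 differences was not tested.

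Neutrophils also make Ltf and Lcn2. Their 12 other markers with a probe summed to 288 to 306 in luminal shROR2, 278 to 312 in luminal shLUC, 255 to 281 in basal shROR2 and 244 to 252 in basal shLUC cells. Most of that sum was the probe of Csf3r, which was bright on all 11 arrays. Without Csf3r, left out after the values were seen, the sum was 2.40 to 3.998 in luminal shROR2, 2.31 to 2.58 in luminal shLUC, 1.09 to 1.33 in basal shROR2 and 1.34 to 2.24 in basal shLUC cells. The neutrophil genes Ngp, Cxcr2 and Mmp8 were well above background on 0 of 11 arrays, whereas S100a8 and S100a9 were so on all 5 luminal arrays and on 0 and 1 of the 6 basal arrays. In shROR2 cells S100a8 was at least 6.23-fold and S100a9 at least 9.06-fold higher in luminal than in basal cells, and in shLUC cells S100a8 was at least 7.31-fold higher, the same direction as Ltf. Elane went the other way in shROR2 cells, at least 1.53-fold lower in luminal than in basal cells. So did Mpo in shLUC cells, at least 1.04-fold lower. Mpo was well above background on 0 luminal and 4 basal arrays, and Elane on 1 luminal and 4 basal arrays. Of the 8 markers tested besides Ltf and Lcn2, 3 were called higher and 0 lower in luminal than in basal shROR2 cells (22.9% of all features called). In shLUC cells 1 was called higher and 1 lower (26.8%). The part of neutrophil RNA in the Ltf levels was not tested. The 8 markers of B and plasma cells summed to at most 2.37 in any group, and the T cell sums overlapped between the hairpins in both compartments.

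**Figure D4:**
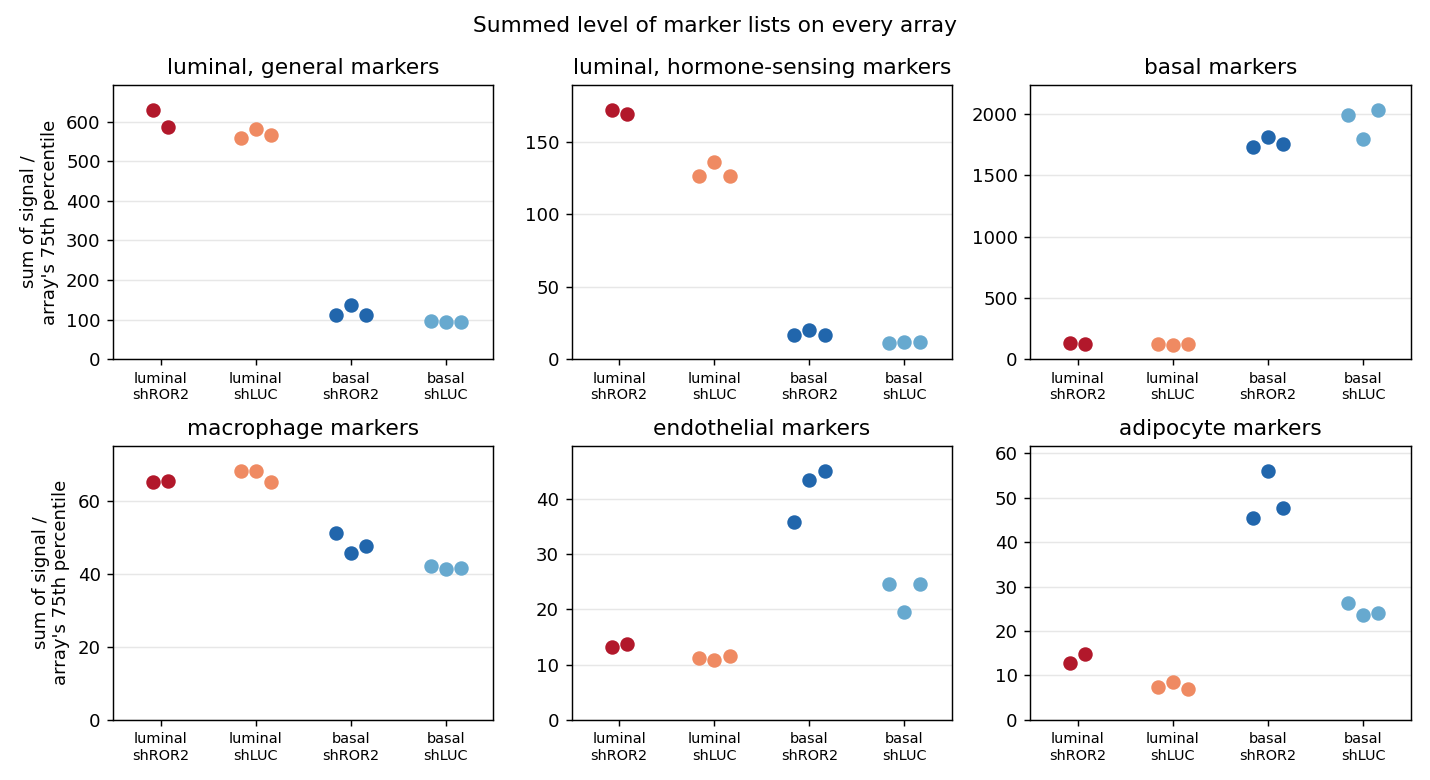
Summed level of 6 marker lists on every array, as signal relative to the 75th percentile of the array, for the 4 groups of cells, with axes that start at 0. General luminal, hormone-sensing, macrophage, endothelial and adipocyte sums of basal shROR2 cells all lie above those of basal shLUC cells, for general luminal markers at 111 to 138 against 94.1 to 96.8.

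Likeness of pattern was measured over the 11 arrays as the root mean square difference between the scaled log2 levels of 2 genes, after each was centred on its own mean. A smaller value means a closer pattern, and it is a description, with no test. The nearest genes to Wfdc2 were Unc13b at 0.155, Clu at 0.174 and Krt18 at 0.175, where the median over all named genes was 1.39. To Ltf they were Clcn3 at 0.404, Sprr1a at 0.419 and Cldn23 at 0.441, against a median of 1.54. To Muc1 they were Cmas at 0.345, S1pr2 at 0.383 and Pdlim2 at 0.392, against a median of 1.49. To Dmbt1 they were Prlr at 0.768, Cldn8 at 0.782 and Timd2 at 0.810, against a median of 2.67.

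By this measure Clca1 had no close neighbour in pattern. Its values in basal shLUC cells scattered near background, with an SD of 1.93, and enter each distance. The nearest 3 were Tnf at 1.39, Ctsr at 1.40 and Calca at 1.54. The median over all named genes was 2.91, and the SD of Clca1 itself over the arrays was 3.02. The group means of these 3 genes ran in the same order as those of Clca1, highest in luminal shROR2 and lowest in basal shLUC cells. Lcn2 and Pigr varied little, with SDs of 0.19 and 0.15, so their neighbours are other genes with flat levels: Nrbp1 at 0.0550, Zfand3 at 0.0586 and Pde4b at 0.0630 for Lcn2, and Trp63 at 0.0567, Brd2 at 0.0587 and Rps25 at 0.0633 for Pigr. Among the 7 genes themselves the closest pairs were Lcn2 with Pigr at 0.138 and Ltf with Wfdc2 at 0.565. Trp63, a gene of basal cells, came to stand beside Pigr through a probe with 10131 to 11798 in luminal and 11858 to 13450 in basal cells. Its other probe gave 2.98 to 21.3 in luminal and 676 to 1712 in basal cells, so the 2 probes of Trp63 disagreed as those of Pigr did.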

How the data were processed

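Per the file headers, the scanner files hold intensity values processed by Agilent Feature Extraction 11.0.1.1. The authors' deposited table holds intensity values; no source used here gives their normalization. Spots of a probe were averaged, control and outlier spots were left out, and log2 signal minus the log2 75th percentile of each array was computed. Probes well above background on at least 3 of 11 arrays were tested, with 1 probe a gene, the one with the highest mean. This left 29430 features, of which 14069 were genes named through RefSeq (GRCm38.p6, used for names and neighbours). limma 3.58.1 (lmFit, eBayes, all 4 groups) in R 4.3.3 gave 2-sided p-values, adjusted by Benjamini and Hochberg, and was tested on simulated data. There a log2 hairpin change of 1 was called for 40% of changed features in basal and 24% in luminal cells. A change of 2 was called for 84% and 70%, and a change of 0.5 for 0% in both, so smaller differences can go uncalled. Figures used matplotlib 3.10.9. The 7 genes and all lists were chosen with earlier results of these data known. Named were every member, of each list the genes called with the hairpin (otherwise the 2 with the smallest p in basal cells), the 2 called with the largest luminal minus basal shLUC difference, the 3 nearest genes in pattern, and markers by level or call. Normexp correction used the median signal, since mean signals were not in the files used. Other alternatives were quantile and median scaling, the authors' values, other filters, slide and replicate blocks, array weights, fewer groups, the mean of all probes, and leaving out each array. The number of arrays limits the precision.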

Additional observations from a re-analysis of the deposited data

How the results depend on the processing

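Under 22 alternatives for each of 5 comparisons, 98 of 110 counts of called members stayed within 1.5 times the value reported and 12 moved. Most of the counts that moved were of the hairpin comparison in basal cells. Of 770 differences of single members, 733 kept their side of the threshold, 28 lost a call, 9 gained one and 0 reversed while called. Some uncalled differences changed sign under an alternative. These were the hairpin differences of Lcn2 in basal and Pigr in luminal cells, and the difference between compartments for Ltf and Wfdc2. The count of 1 in basal cells became 0 with the replicate block, 0 with array weights and 0 when only the 2 basal groups were fitted, and it ranged from 0 to 2 when 1 array was left out. The count of 0 in luminal cells became 1 (Clca1) with normexp and 1 with the authors' values. The basal Clca1 difference was positive in 22 of 22 alternatives, between 3.16 and 6.07, and its call was lost in 9 of the 22. Samples with the same number did not deviate together (correlations of -0.04 to 0.04), so the replicate block pairs nothing here; over all features it left 37 calls in basal cells, against 279 without it. The causes of these shifts were not tested. Fits with an array left out or with fewer groups hold fewer samples, and calls over all features fell in some and rose in others. The calls on all features in basal cells were 0 with only the basal groups, 687 with normexp, 538 with the authors' values, 195 with median scaling, 131 with no filter, 129 with the slide as a block and 44 with array weights, and 21 to 878 with 1 array left out. Signals near background limit what can be said of Dmbt1, Muc1 and Clca1 in basal cells.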
